A study of Arabidopsis thaliana with 88 samples.

Results

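Accession 6966 is 1 of 32 natural inbred lines of Arabidopsis thaliana whose leaf DNA was bisulfite-sequenced, a method in which unmethylated cytosines are read as thymines. The 4 libraries labelled 6966, out of 88 in the series, were set against the other 31 accessions, which have 84 libraries. None of the plants was treated, and accessions differ only in their natural genotype as far as the labels say. Mature leaves of a few plants at the 14-leaf rosette stage were combined in each library, and plants were sown and collected anew for each replicate number, so the 4 libraries of 6966 come from 4 growth rounds. Of the 32 accessions, 11 have 4 libraries, 5 have 3, 13 have 2 and 3 have 1.

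Plant DNA methylation falls into 3 sequence contexts, each kept by its own enzymes. CG methylation is copied after replication by MET1, CHG methylation by CMT3 (H is any base but G), and CHH methylation is laid down by CMT2 or by the DRM enzymes, which are guided by small RNAs. Many active genes carry CG methylation alone in their bodies, whereas transposable elements (TEs) and silenced genes carry methylation in all contexts.

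The deposited values are methylation levels per locus and library, given here in percent, for 62018 loci of the Araport11 annotation, which hold genes, TE genes and their fragments, and for 36877 loci of the authors' own annotation, which adds long noncoding RNAs (lncRNAs). Each locus has a level for its whole length, called the gene body here, and one for a promoter window of 400 bp centred on its start. The coverage behind a level is unknown, so no counting error can be given. A level is an average over the cells of a leaf, in which partly methylated cells and a mixture of methylated and unmethylated cells cannot be told apart. The 4 libraries of 6966 resembled each other more than any other library: over 24124 genes, Pearson's r of gene-body CG between them was 0.936 to 0.946, against 0.618 to 0.839 with libraries of other accessions. These are descriptions across genes, which are not independent replicates.

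The level of each whole locus class in 6966 lay within the range of the other accessions. Protein-coding gene bodies had 13.2% ± 0.228 CG methylation (SD, n = 4), against a mean of 13.7% over the other accessions, which ranged from 6.69% to 19.0%. TE genes had 77.3% ± 0.427 CG and 35.8% ± 0.614 CHG (SD, n = 4), against means of 74.9% and 34.4% elsewhere. CHG methylation of protein-coding genes stood nearer the top of the range, at 1.61% ± 0.0298 (SD, n = 4) against a mean of 1.39%, and only 2 accessions were higher. CHH of antisense lncRNA loci was 0.710% ± 0.0478 (SD, n = 4) against 0.646%, with 1 accession higher. In gene bodies, CHH of protein-coding genes ranked 2 of 32 (0.680% against 0.632%) and CHG of antisense lncRNA loci 3 (1.54% against 1.31%). In promoter windows, CHH of antisense lncRNA loci ranked 2 (0.712% against 0.657%) and CHG of protein-coding genes 3 (1.41% against 1.25%). CHG and CHH of intergenic lncRNA and TE classes ranked from 10 to 19. None of the 27 class levels, 15 in gene bodies and 12 in promoter windows, differed from the other accessions at p under 0.05. The exact two-sided permutation test of 1 accession against 31 gave a smallest p of 0.125 (0.844 after Benjamini-Hochberg adjustment), and that design can go no lower than 0.03125. Without replicate 1 of 6966, the CHH level of antisense lncRNA loci became the highest of all 32 accessions (0.0829 percentage points above the mean, exact p = 0.03125). The same held in their promoter windows, where the difference was 0.0790 points. These p are not adjusted for the 27 class levels, each also tried without each of the 4 libraries. In gene bodies this CHH level rose from 0.652% in replicate 1 to 0.763% in replicate 4.

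**Figure D1:**
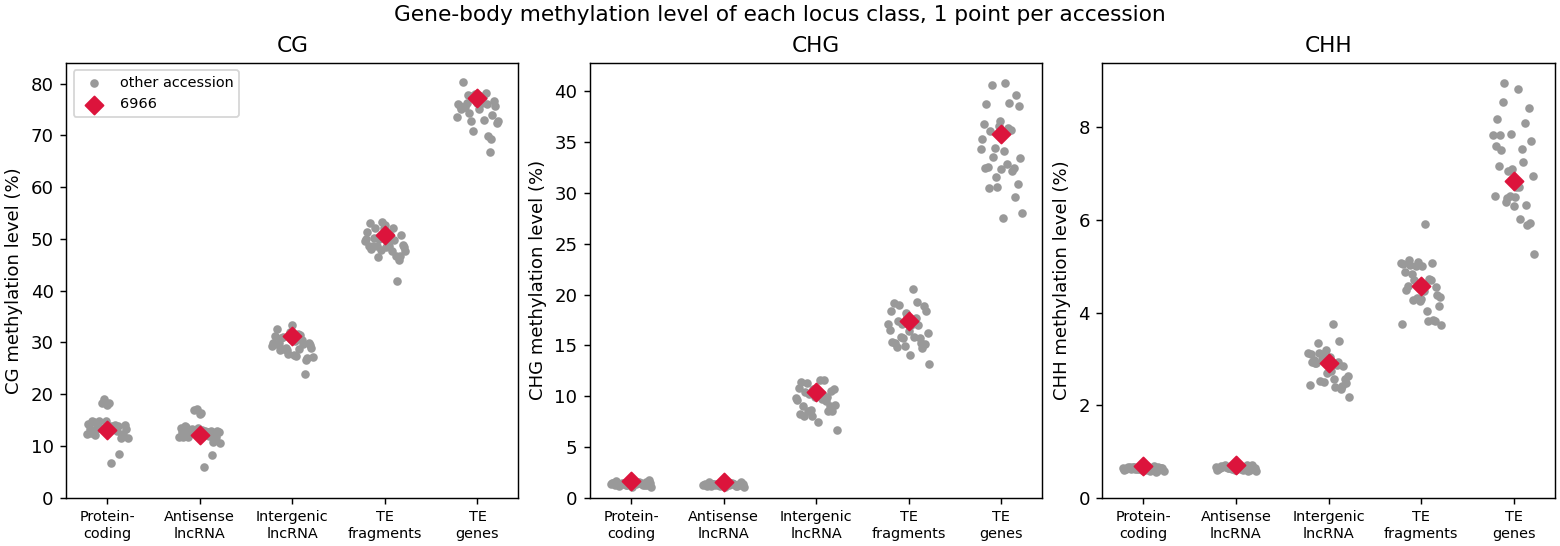
Methylation level (%) of each locus class in gene bodies, with 1 grey point per other accession and a red diamond for the mean of the 4 libraries of 6966. The diamonds lie within the grey points for every class and context, near the top for CHG in protein-coding genes (1.61%).

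Single loci differed far more than the averages. A locus was called higher or lower in 6966 when its level differed from the mean of the other accessions at an adjusted p under 0.05 and by at least 20 percentage points for CG and CHG, or 10 for CHH. The test was a linear model of accession means, with a spread between replicate libraries moderated across loci by limma and Benjamini-Hochberg adjustment over each table. In Araport11 gene bodies, CG was called higher at 977 loci (2.25% of 43376 tested) and lower at 598 (1.38%). CHG was called higher at 265 loci (0.685% of 38677) and lower at 76 (0.196%), and CHH higher at 97 (0.218% of 44569) and lower at 9 (0.0202%). Promoter windows had 1230 higher (2.68%) and 519 lower (1.13%) for CG, 351 higher (0.894%) and 68 lower (0.173%) for CHG, and 145 higher (0.313%) and 2 lower (0.00432%) for CHH.

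The authors' annotation, which covers many of the same loci in the same libraries and is not separate evidence, gave the same order. Its gene bodies had 678 loci higher (1.98% of 34254) and 423 lower (1.23%) for CG, 201 higher (0.593%) and 61 lower (0.18%) for CHG, and 31 higher (0.0905%) and 4 lower (0.0117%) for CHH. Its promoter windows had 719 higher (2.24%) and 326 lower (1.02%) for CG, 125 higher (0.426%) and 36 lower (0.123%) for CHG, and 49 higher (0.152%) and 1 lower (0.0031%) for CHH. CG values of exactly 100% weigh on the promoter counts, since they may stand for windows without a covered CG. With these values read as no data, 711 loci were higher and 315 lower in CG in Araport11 promoter windows. In those of the authors' annotation, 426 were higher and 286 lower. With CHG values of exactly 100% kept, the promoter counts of higher CHG rose to 619 and 360.

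A call against the mean of the others does not set 6966 apart, because most called loci vary among the other accessions too. In Araport11 gene bodies, all 6966 libraries lay beyond every other accession's mean at 62 loci called higher in CG (0.143% of those tested). The same held at 19 loci called lower in CG (0.0438%). The counts were 34 and 9 for CHG (0.0879% and 0.0233%) and 16 and 2 for CHH (0.0359% and 0.00449%). Loci of this kind are said below to lie outside the range of the others. Other accessions stand as their means here and at the single loci below, so their single libraries may still overlap those of 6966.

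When each accession in turn was set against the other 31 by the minimum differences alone, without a test, 6966 lay within the spread of most such counts. Its mean was above all others at 53 gene bodies in CG, ranking 24 of 32, and at 22 in CHG, ranking 17. It was below all others at 24 in CG, ranking 29, and at 10 in CHG, ranking 21. Against the mean of the others, 6966 had 444 gene bodies with higher CHG, ranking 21 of 32, and 237 with lower CHG, ranking 31. In all 3 contexts together, 32 loci were higher in 6966, against a mean of 37.0 ± 20.2 (SD, n = 31), and 5 were lower, against 19.8 ± 9.34. The count of 5 was the lowest, with an exact two-sided permutation p of 0.156 (0.740 adjusted over 14 such counts and shares). These counts set accessions with 1 to 4 libraries side by side. Among the 11 accessions with 4 libraries, 6966 had 8 loci lower in all contexts, still the lowest count. The mean of the others was 21.5 and their lowest 13 (exact permutation p = 0.182). In CHG it had 447 higher and 262 lower there, ranking 6 and 10. With replicates 3 and 4 of each of the 24 accessions that have both, 6966 had 17 loci lower in all contexts, ranking 17 of 24. It then had 750 higher and 373 lower in CHG, ranking 7 and 19. Higher loci made up 65.2% of the CHG loci past the minimum in 6966, against 55.0% ± 14.5 (SD, n = 31) elsewhere (exact permutation p = 0.5625). No measure of this kind had a p under 0.05.

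**Figure D2:**
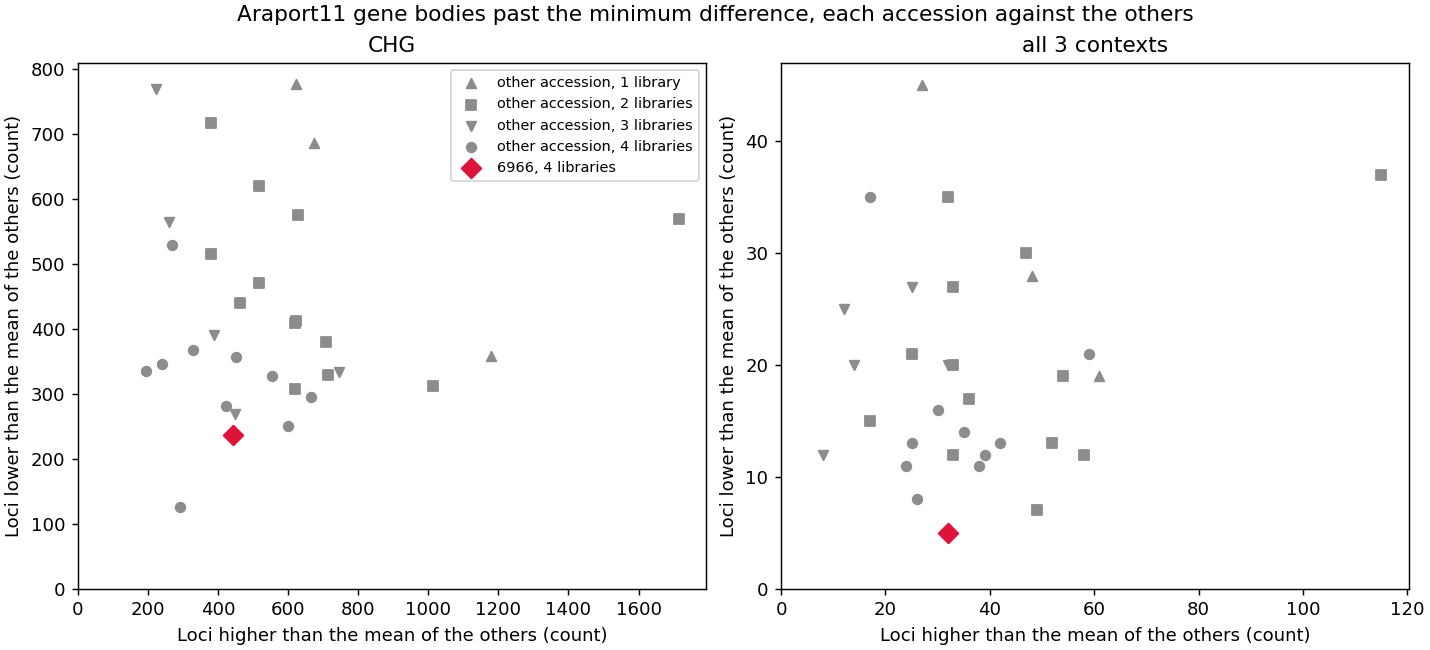
Number of Araport11 gene bodies higher (x axis) and lower (y axis) than the mean of the other accessions by the minimum difference, in CHG on the left and in all 3 contexts on the right, with 1 point per accession and its shape giving the number of libraries. The red diamond of 6966 lies at 444 and 237 on the left and at 32 and 5 on the right, below all other accessions on the y axis of the right panel.

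Among protein-coding gene bodies, 362 were called higher in CG and 200 lower (1.39% and 0.771%), 132 higher and 20 lower in CHG (0.512% and 0.0775%), and 18 higher and none lower in CHH (0.0693% and 0% of 25969; 322 had an adjusted p under 0.05 at any size). CG and CHG changed together in 122 genes that were higher and 17 that were lower, of 25797 tested in all contexts. Over all Araport11 gene bodies they did so at 202 and 55 of 38387 loci. A median gene of the 122 had 83.8% CG in 6966 against 26.1% elsewhere, and a CHG level 29.2 points above the mean. In 15 of them no other accession reached 20% CHG, and in 43 at most 3 others did. The 17 lower genes had a median of 1.16% CG in 6966 against 57.0% elsewhere, and a median of 18 other accessions had at least 20% CHG at them. A lower call needs a mean of at least 20% in the others, so a gene methylated in few accessions could not be called lower.

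CG changed without CHG or CHH in 227 genes that were higher and 180 that were lower, with median differences of 28.8 and -26.4 percentage points. Over all 38387 Araport11 gene bodies tested in all contexts, the counts were 603 and 437. In the higher genes the median CHG difference was 4.83 points, under the minimum for a call. TE fragments lay within 27.3% of the 227 genes and 25.0% of the 180, and within 14.5% of all 25797 genes tested. Some of these calls rest on CG values of exactly 100%, which at least 1 library of 6966 had at 39 of the 227 genes and 2 of the 180. In promoter windows 306 genes were higher and 79 lower in CG alone, of 22247 tested in all contexts. Over all 38970 Araport11 windows tested in all contexts, the counts were 804 and 371. A CG value of exactly 100% occurred in 6966 at 223 of the 306 genes and 3 of the 79. With these values read as no data, 214 gene bodies and 127 promoter windows were higher in CG alone. Of the first calls, 195 of the 227 gene bodies and 98 of the 306 promoter windows were among them.

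**Figure D3:**
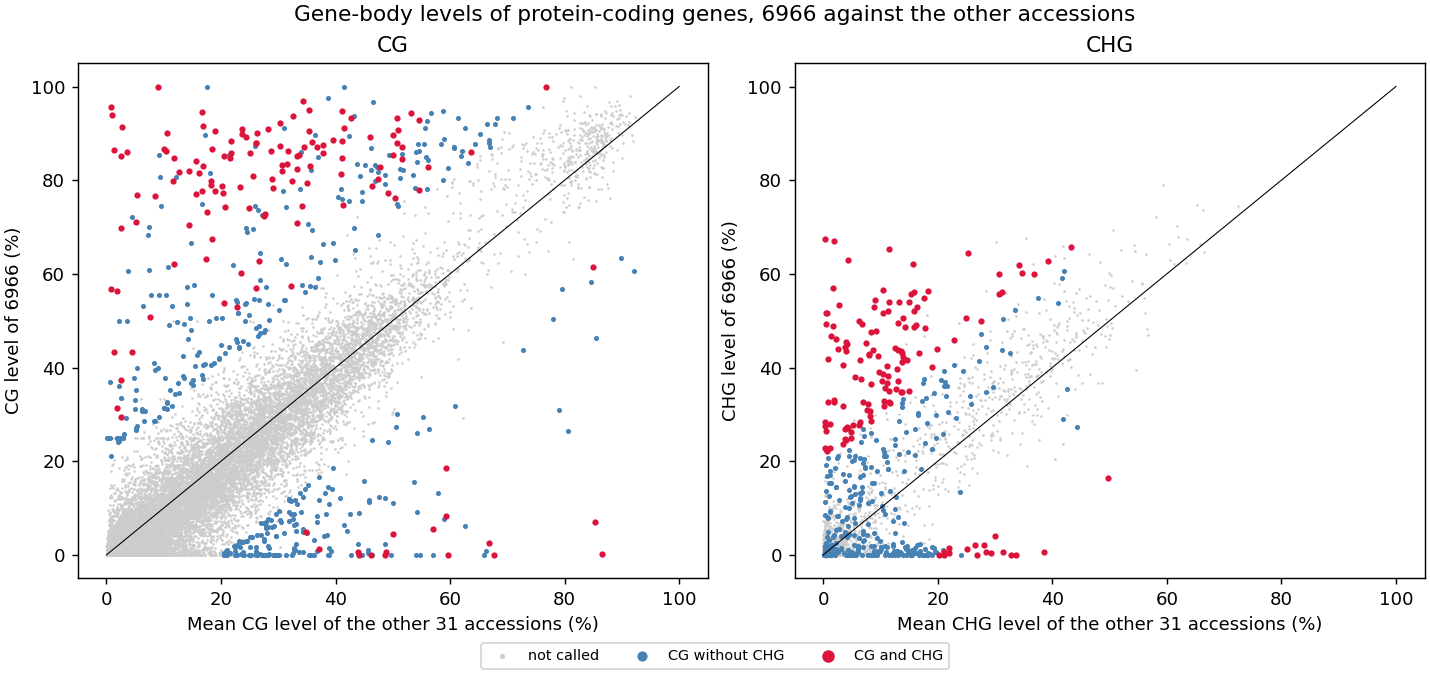
Gene-body level of each protein-coding gene in 6966 (y axis, %) against the mean of the other 31 accessions (x axis, %), for CG on the left and CHG on the right, with the line of equality. Red points are genes called in CG and CHG in the same direction (122 higher, 17 lower) and blue points are genes called in CG without CHG. Most red points lie far above the line at CG levels around 83.8%.

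In all 3 contexts, 16 protein-coding gene bodies were called higher in 6966 and none lower, of 21 Araport11 gene bodies higher (0.0547% of 38387 with a test in each context) and 4 lower (0.0104%). TE genes and TE fragments that overlap each other count separately in these totals. In 4 of the 16 no other accession reached 20% CHG, 5 were shared with 1 other accession, 3 with 2 or 3 and 4 with more. Accession 4807 shared 4 of the 16 genes, the most of any, and accessions 6021 and 6076 shared 3 each. TE fragments overlapped 3 of the 16. In 7 genes the 6966 libraries lay outside the range of the others in every context. Over all Araport11 gene bodies tested, 0.143% were higher and outside the range in CG, 0.0879% in CHG and 0.0359% in CHH. For other accessions the count in every context was not made, so nothing particular to 6966 is read from it.

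AT5G43200, on chromosome 5 (TAIR10, 17346141 to 17346829, minus strand), had the largest combined difference. Its CG level was 100%, 96%, 91.3% and 95.5% in replicates 1 to 4 of 6966, while the highest other accession was at 10.1% and the median at 0%. CHG was 80%, 75%, 64.7% and 50%, against at most 2.94% elsewhere. CHH was 20.8%, 14.5%, 16.7% and 12.5%, against at most 2.22%. Every 6966 library was above all other accession means in each context. The differences were 94.9 points for CG (SE 0.717, limma adjusted p = 1.2e-68), 67.1 for CHG (SE 1.63, adjusted p = 8.67e-41) and 15.7 for CHH (SE 0.527, adjusted p = 3.61e-33).

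AT3G47200, on chromosome 3 (17377443 to 17379395, minus strand), and AT1G58037 had the same pattern. Its CG level was 89.2%, 91.5%, 100% and 95% in 6966, against at most 4.17% elsewhere. Its CHG level was 40%, 43.2%, 66% and 47.9%, against at most 2.27%, and CHH was 8.65%, 13.8%, 13.6% and 11.5%, against at most 1.3%. AT1G58037, on chromosome 1 (21472554 to 21474602, minus strand), had even levels in the 4 libraries. CG was 81.4%, 88.7%, 85.8% and 85.0%, against at most 19.1% elsewhere, and CHG was 59.3%, 49.4%, 51.2% and 46.3%, against at most 2.63%. CHH was 14.8%, 13.3%, 16.8% and 14.4%, against at most 1.61%. At both genes all 6966 libraries were above every other accession mean in all contexts. The CG differences were 92.9 (SE 0.992) and 82.7 points (SE 1.53, limma adjusted p = 2.52e-60 and 4.41e-47).

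AT3G46760 was the fourth gene with no other accession at 20% CHG. It differed from those 3 in its background, since most other accessions had some CG methylation there: the median was 11.3% and the highest 45.0%, against 78.6% to 85.7% in 6966. CHG was 41.0% to 59.4% in 6966 and at most 2.9% elsewhere.

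A pair of disease-resistance genes of the nucleotide-binding leucine-rich-repeat class, whose products sense pathogen effectors, was among the 16. AT1G63360 (chromosome 1, 23498484 to 23502321, minus strand) had CG levels of 89.6%, 84.8%, 85.3% and 85.3% in 6966, against a median of 1.19% and a highest value of 82.6% in accession 6076. CHG was 57.1%, 51.2%, 51.8% and 52.9% (36.2% in 6076), and CHH was 9.65%, 12.8%, 13.7% and 12.8% (6.85% in 6076). The 6966 libraries were above every other accession mean in each context. For CHG the difference from the mean of the others was 50.5 points (SE 2.19, limma adjusted p = 8.34e-28). AT1G62630, a gene of the same class on chromosome 1 (23185760 to 23189224, plus strand), had CG levels of 83.1% to 87.0% and CHG levels of 33.3% to 47.1% in 6966. At AT1G62630 2 other accessions reached 20% CHG, the highest with 45.1%, so the groups overlapped. Genes of this class have close copies in the genome, and reads shared between copies could move a level from one to another.

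Further all-context calls lay close to AT1G63360. All-context calls in both annotations and both regions, joined over gaps of up to 10000 bp, formed 1 stretch of 8369 bp (chromosome 1, 23493953 to 23502321). It holds 4 overlapping antisense lncRNAs on the plus strand, named CUFF_NC.2159 to CUFF_NC.2162 in the authors' annotation, which cover AT1G63350 and AT1G63360. AT1G63350 itself was not called in all contexts, and a gap without a call separates CUFF_NC.2159 from the promoter window of CUFF_PC.4471 at the other end. CUFF_NC.2162 had CG levels of 87.7%, 86.8%, 85.2% and 86.5% in 6966 and a highest other value of 84.6%. Levels of a gene and its antisense partner come from the same cytosines and are not separate evidence.

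A stretch of 11095 bp on chromosome 4 (15548566 to 15559660) joined ASY2 and AT4G32208 by the same rule, with a gap between them. ASY2, a homologue of the meiotic chromosome-axis protein ASY1, had gene-body CG levels of 79.8%, 91.0%, 81.8% and 90.7% in 6966. At ASY2 5 other accessions had at least 20% CHG, up to 62.0%, and the groups overlapped in every context. AT4G32208 was high in fewer accessions. Its CG levels were 97.0%, 95.1%, 85.2% and 88%, against at most 37.6% elsewhere, and its CHH levels 22.5%, 18.2%, 5.71% and 17.3%, against at most 1.73%. Its CHG level was 57.1%, 54.5%, 26.7% and 48.7% in 6966, so replicate 3 was close to the 25% of accession 5779, the highest of the others. The antisense lncRNA CUFF_NC.8578 lies across AT4G32208 and 3 TE fragments and had the same levels.

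Further members of the 16 differed in how many accessions shared them and in how even the 6966 libraries were. ABCC9, an ABC-class membrane transporter, had CG levels of 72.9% to 79.3% and CHG levels of 55.9% to 58.7% in 6966, outside the range of the others, of which 1 reached 36.0% CHG. AT4G37500 had a CG level of 100% in each library, a value that may mean few covered sites, and its CHH level ran from 2.17% to 28.1%. At AT4G37500 2 other accessions had at least 50% CG and 20% CHG, the higher being 9888 with 94.8% CG and 63.0% CHG. Without replicate 4, the CHH difference at AT4G37500 fell from 12.2 to 7.3 points, under the minimum for a call. AT5G46310 had CG levels of 79.3%, 84.4%, 100% and 80% in 6966 and 79.7% in accession 4807, and its CHH call was lost without replicate 1 or replicate 3 (9.6 and 8.5 points).

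AT5G11565 is short, with 258 bp, and its gene-body CG call was lost without replicate 2, 3 or 4 (limma adjusted p of 0.132 or 0.133), and without accession 6909 (adjusted p = 0.0528). Its promoter window was more even, with CG levels of 83.3%, 83.3%, 85.7% and 88.9% in 6966 and at most 77.1% elsewhere. That value was of accession 4807, whose promoter CHG and CHH levels of 61.7% and 21.1% were above the 6966 means of 43.3% and 21.0%. AT4G12810 was higher by 68.3 points for CG and 40.8 for CHG, and 2 other accessions reached 20% CHG there. AT1G35710, AT1G51530 and AT1G33010 were methylated in 6, 8 and 10 other accessions at 20% CHG or more, at levels that overlapped those of 6966.

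**Figure D4:**
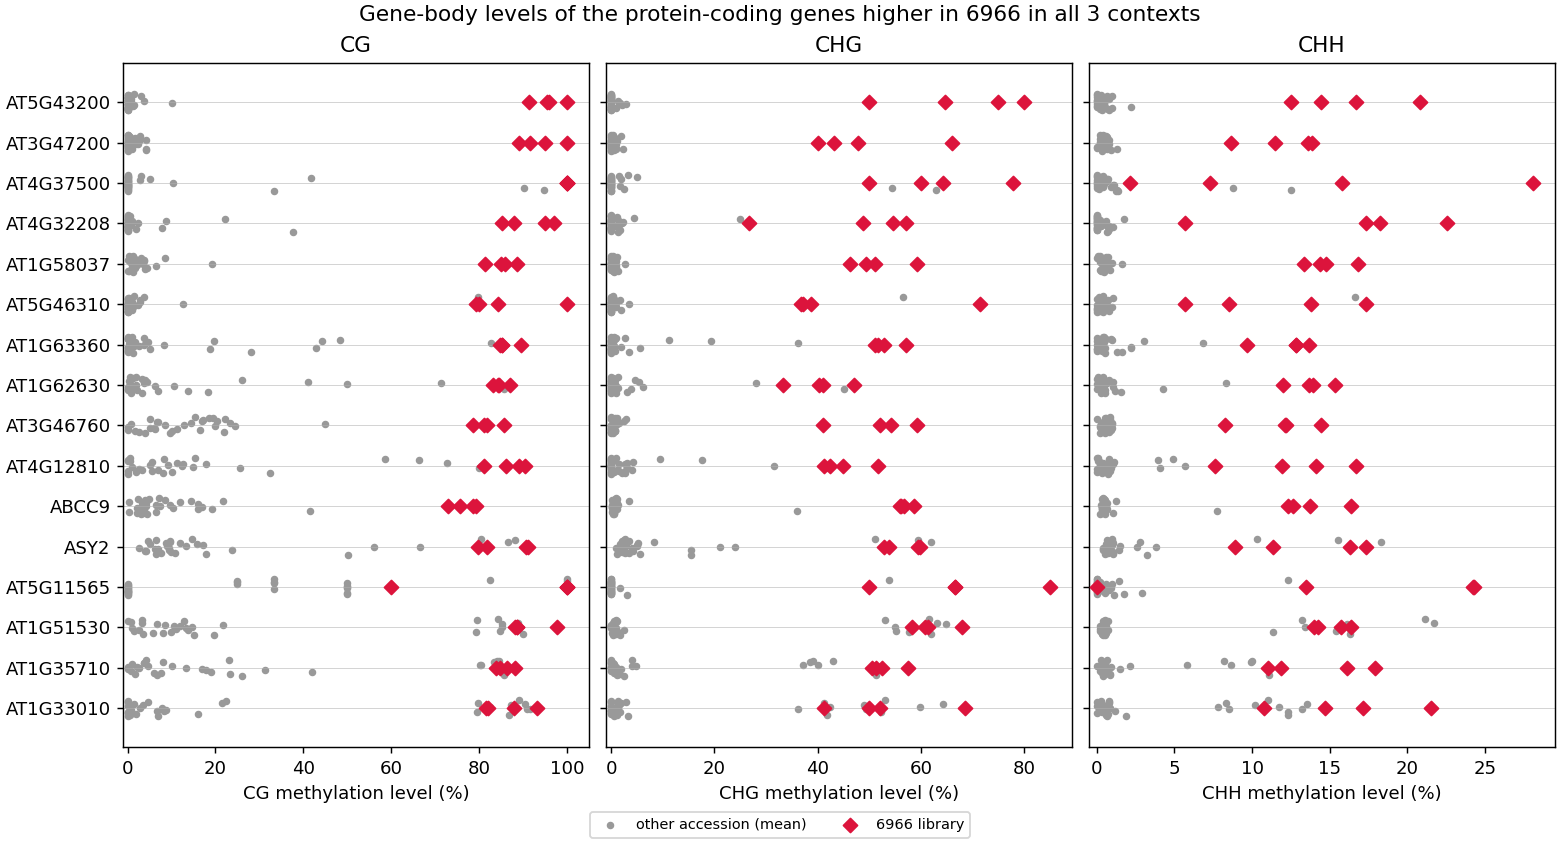
Gene-body level (x axis, %) of the 16 protein-coding genes called higher in 6966 in all 3 contexts, with 1 red diamond per library of 6966 and 1 grey point per other accession. Genes at the top, such as AT5G43200, have diamonds well to the right of all grey points, while at AT1G33010 at the bottom 10 other accessions lie among them in CHG.

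Promoter windows of 9 protein-coding genes were higher in all 3 contexts and none was lower, of 26 Araport11 windows higher (0.0667%) and 2 lower (0.00513%). Overlapping windows count separately in these totals. The 2 losses fell to 0 without any single library of 6966, and also when CG values of exactly 100% were read as no data. In promoter windows of protein-coding genes, CG was higher at 453 and lower at 102 (1.85% and 0.417%), CHG at 89 and 13 (0.397% and 0.058%) and CHH at 33 and 0 (0.134% and 0%). Beside AT5G11565 and ASY2, the largest were AT5G40750, AT3G09162 and AT1G52618. AT5G40750 had promoter CHG levels of 40.9%, 61.5%, 64.3% and 9.09% in 6966, so replicate 4 stood low, and 3 other accessions reached 20%. AT3G09162 had promoter CG levels of 87.0%, 96.8%, 93.3% and 92.0% in 6966, a mean 71.5 points above the others (SE 4.2, limma adjusted p = 1.2e-20), though 6 other accessions had at least 50%. Their CHG calls were lost when CHG values of exactly 100% were kept (limma adjusted p = 0.604 at AT5G40750 and 0.0612 at AT3G09162), and their CHH calls did not hold without each library. At AT5G40750 the CHH difference was 9.9 points without replicate 2 and 8.9 without replicate 3, and at AT3G09162 it was 9.7 without replicate 1 (adjusted p = 0.0618). At AT1G52618 the CHH difference had an adjusted p of 0.0534 without replicate 1 and 0.309 without replicate 3. None of the 9 promoter windows lay outside the range of the others in every context.

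At further genes CG alone was called. ENT4, an equilibrative nucleoside transporter, had CG levels of 77.2%, 81.9%, 79.7% and 84.0% in 6966 against at most 28.1% elsewhere. Its CHG levels of 26.2%, 15.3%, 17.2% and 17.9% were above the 2.33% of the next accession, a difference of 18.7 points that stayed under the minimum. Its CHH levels, 1.14% to 2.15%, were also above the highest other value of 0.872%. AT5G46320 lies near AT5G46310 on chromosome 5 and had CG levels of 77.8%, 52.2%, 70% and 73.3%, against at most 39.9%. AT1G36640 had CG levels of 100%, 100%, 66.7% and 75%, against at most 62.1%. AT1G34403 had 100% in each library with no CHG methylation, and CYP71A20, a cytochrome P450 gene, had 100%, 66.7% and 50% in 3 libraries and no data in replicate 4. For AT1G34403, AT1G36640 and CYP71A20 too few CG values were left for a test once those of exactly 100% were read as no data.

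In the other direction, genes with CG methylation in all or nearly all other accessions were nearly unmethylated in 6966. PIRL6, a plant intracellular Ras-group-related leucine-rich-repeat protein, had CG levels of 1.33%, 2.13%, 1.04% and 1.22% in 6966, while the other accessions ranged from 17.1% to 71.0%. RPF2, an RNA-processing pentatricopeptide-repeat protein, had 0% in each library, against a median of 30.5% and a lowest value of 0.855%. The differences were -37.4 points for PIRL6 (SE 4.83) and -29.0 for RPF2 (SE 4.04), with limma adjusted p of 1.27e-08 and 9.76e-08. CHG reached at most 4.35% in any 6966 library at both genes.

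AT4G05360 was the one among the named CG losses that also had CHG methylation in every other accession. Its CG was 0%, 0%, 0% and 1.59% in 6966 against 15.1% to 64.9% elsewhere, and its CHG was at most 1.65% in 6966 against 7.1% to 33.3%. The CHG difference of -19.9 points (SE 2.89, limma adjusted p = 4.84e-07) was just under the minimum for a call, and 6966 lay below the range of the others in all 3 contexts. AT3G30840 had no data in replicate 1 and CG levels of 50%, 33.3% and 55.6% in the rest, against at least 58.3% elsewhere, but its call was lost without replicate 3 (adjusted p = 0.089).

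TEs took part in both directions. Of TE fragments, 536 gene bodies were higher in CG and 352 lower, which is 3.59% and 2.36% of 14941 tested, and of TE genes 79 were higher and 46 lower (3.19% and 1.86% of 2478). In all 3 contexts, 4 TE fragments and 1 TE gene were higher, and 3 TE fragments and 1 TE gene lower. The higher TE gene contains 1 of the 4 fragments, and the lower TE gene lies within 1 of the 3. Their levels rest on shared cytosines and are not separate evidence. The TE gene AT3G27965 had CG levels of 31.2%, 55.6%, 41.7% and 40%, against a median of 0% and 41.5% in accession 9888, and its CHH call was lost without replicate 3 or replicate 4 (9.7 and 9.8 points). The TE gene AT1G43715 was lower: its CG level was 0%, 0.82%, 0% and 0% in 6966 and its CHG level at most 0.545%, against medians of 83.6% and 60.1%. At AT1G43715 26 of the 31 other accessions had at least 50% CG, and 5 did not, so 6966 shared the low state with a minority. The difference was -70.4 points for CG (SE 2.17) and -50.6 for CHG (SE 1.91, limma adjusted p = 2.52e-35 and 7.92e-31).

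Of lncRNA loci in the authors' annotation, 111 intergenic gene bodies were higher in CG and 52 lower (6.93% and 3.25% of 1601), and 197 antisense ones were higher and 166 lower (2.51% and 2.12% of 7841). In all 3 contexts 9 antisense and 2 intergenic lncRNA loci were higher and none was lower, of 21 gene bodies higher (0.062% of 33884) and 3 lower (0.00885%) in that annotation. The 9 antisense loci include the overlapping ones across AT1G63360, counted separately. Its promoter windows had 9 higher (0.0309%) and 1 lower (0.00344%) in all 3 contexts. CUFF_NC.6374, an intergenic lncRNA on chromosome 3 (15780924 to 15782024, plus strand), lies 514 bp from AT3G43990. Its CHG level was 66.7%, 68.2%, 80% and 70% in 6966 against at most 50% elsewhere, whereas its CG levels of 85.7% to 100% were reached by other accessions too. Its CHH call was lost without replicate 3 (9.5 points). CUFF_NC.4061, on chromosome 2 (11812659 to 11813166, minus strand), had CHG levels of 51.4%, 62.5%, 34.5% and 33.3%, and its CHG call was lost without replicate 1 or replicate 2 (limma adjusted p = 0.095 and 0.225). Its CHH call was also lost without replicate 2 (7.4 points, adjusted p = 0.40).

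Antisense lncRNAs with the largest gains beside those of AT1G63360 and AT4G32208 were CUFF_NC.1781 and CUFF_NC.6551. CUFF_NC.1781, antisense to AT1G52940, had CHH levels of 10.5%, 55%, 31% and 63% in 6966, against a median of 3.85%, so the 4 libraries differed widely. Its CG call was lost without replicate 2 or replicate 4 (limma adjusted p = 0.0733 and 0.074). CUFF_NC.6551 spans AT3G47250 and 8 TE fragments, had no data in replicate 1, and had CHH levels of 26.5%, 32.6% and 36.6% in the rest. AT3G47250 itself had no data in any library of 6966.

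Some genes of the methylation machinery were called. Of all Araport11 gene bodies tested, 2.25% were called higher and 1.38% lower in CG, and 0.685% and 0.196% in CHG. Nothing particular to the lists below is read from their counts. Of 14 DNA methyltransferase and maintenance genes, 3 were called higher in gene-body CG and none lower, with a median difference of 0.0342 points against -0.370 over all 43376 loci. The 3 are the MET1 paralogues MET2a, MET2b and MEE57, which are not known to be the main CG methyltransferase of leaves. MET2a had CG levels of 76.3%, 77.9%, 77.1% and 82.4% in 6966, against a median of 22.6% and a highest value of 75.0%, and CHG levels of 33.9%, 45.4%, 38.7% and 40.8%. MET2b had CG levels of 85.1%, 79.5%, 73.6% and 79.3%, which overlapped those of others (up to 85.1%), and MEE57 had 60.1%, 63.7%, 59.2% and 64.9%, above the highest other value of 54.0%. CHG was called higher in MET2a and MET2b, by 26.9 and 24.0 points (SE 1.91 and 1.93, limma adjusted p = 9.13e-18 and 1.57e-15), and was 18.2 points higher in MEE57, under the minimum. At least 20% CHG was also found in 10, 11 and 4 other accessions, respectively. The 3 genes are similar in sequence, and reads shared between them could couple their levels.

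Of 21 genes of RNA-directed DNA methylation, the pathway in which small RNAs guide the DRM enzymes, only AGO6 was called. AGO6 was higher in gene-body CG, as were 2.25% of all Araport11 gene bodies tested. This Argonaute protein, which binds such small RNAs, had CG levels of 59.6%, 63.1%, 66.1% and 63.7% in 6966 against a median of 29.1%. Its CHG levels of 17.5%, 9.96%, 15.5% and 11.6% were all above the highest other value of 0.988%, a difference of 13.1 points (SE 0.448, limma adjusted p = 5.84e-33) that was under the minimum for a call. None of 4 demethylase genes was called in its gene body, and none of 6 genes of histone H3K9 methylation and its removal in either region. DML2, a DNA demethylase, was called higher in promoter CG with values of 100%, 0%, 100% and 100% and no CHG or CHH methylation, and the call was lost without replicate 1, 3 or 4 (adjusted p of 0.13 to 0.135).

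Of 14 genes known for heritable methylation variants, 3 were called higher in gene-body CG and 3 lower (2.25% and 1.38% over all loci), and the same 3 higher genes were called in CHG (0.685% over all loci). The list holds genes known to vary between accessions. SNC1 and RPP5, resistance genes of 1 cluster on chromosome 4, were among the higher ones. SNC1 had CG levels of 81.8%, 77.8%, 83.3% and 76.5% in 6966, above the highest other value of 74.7%, and CHG levels of 35.1%, 53.1%, 59.6% and 27.3%. RPP5 had CG levels of 85%, 93.1%, 70% and 75.9%, within the range of the others. CHG differences were 35.2 points for SNC1 (SE 2.72) and 29.2 for RPP5 (SE 5.62), with limma adjusted p of 4.3e-16 and 0.00023. Genes of this cluster are close copies of each other, so their levels are uncertain in the same way as above.

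HISN6B, 1 of 2 gene copies for a histidine-synthesis enzyme, had CG levels of 100%, 50%, 100% and 100% and CHG levels of 71.4%, 21.1%, 73.3% and 50% in its gene body in 6966. CG values of exactly 100% may mean few covered sites. With CHG and CHH values of exactly 100% kept as deposited, the gene-body CHG call of HISN6B was lost (30.8 points, limma adjusted p = 0.107). Its promoter window was also called higher in CG and CHG, and 7 other accessions had at least 20% CHG in both regions. The tryptophan-synthesis genes PAI1, PAI2 and PAI3, silenced by methylation in some accessions, were the 3 lower ones. PAI1 had CG levels of 3.12%, 22%, 0% and 5.88% in 6966, PAI2 had 0%, 7.41%, 3.85% and 14.3%, and PAI3 had 17.6%, 9.78%, 8.22% and 8%. The median of the others was 6.23% at PAI1, 10% at PAI2 and 33.2% at PAI3, so at PAI1 and PAI2 the state of 6966 was also that of many others. The PAI1 call (-20.4 points) was lost without replicate 1, 3 or 4, with differences of -18.8, -17.8 and -19.8, and also when exact values of 100% were read as no data (-18.5). The PAI2 call (-26.4 points) was lost without replicate 1 (limma adjusted p = 0.0546). On the arcsine scale both calls were lost (limma adjusted p = 0.0538 at PAI1 and 0.0737 at PAI2).

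**Figure D5:**
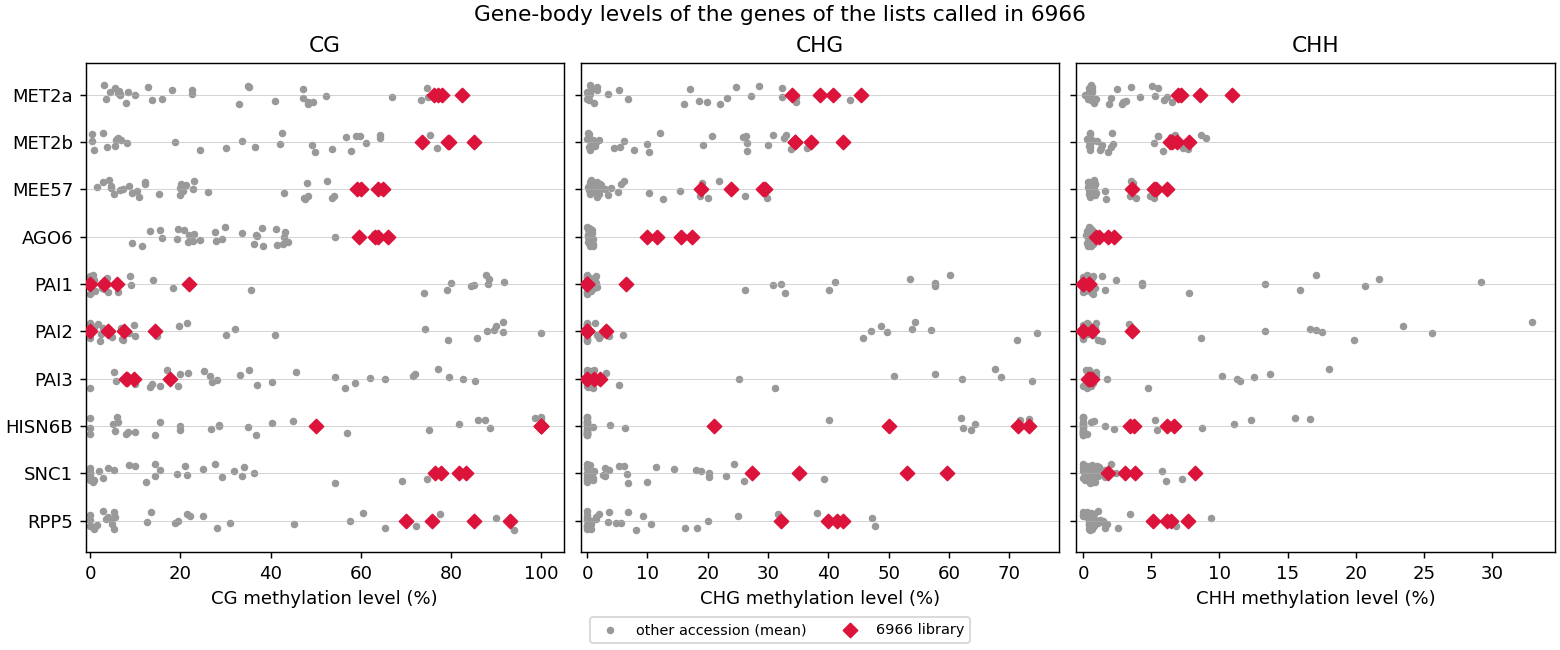
Gene-body level (x axis, %) of the 10 genes of the methylation machinery and of known methylation variants that were called in 6966 in at least 1 context, with 1 red diamond per library of 6966 and 1 grey point per other accession. MET2a, MEE57 and SNC1 have CG diamonds to the right of all grey points, and the PAI genes have diamonds among the accessions with low levels.

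Loci without data were as frequent in 6966 as elsewhere. Among protein-coding gene bodies, 2.22% had no data per library of 6966, against a mean of 2.31% for the other accessions (exact two-sided permutation p = 0.5). No library of 6966 had data at 22 protein-coding genes at which at least 80% of the other libraries did, and the same held for 243 TE fragments and 37 TE genes. ETC2, a small MYB protein that limits trichome formation, was 1 of the 22, and all 84 other libraries had data there (chromosome 2, 12960847 to 12962162). AT3G42780, AT1G62410, AT5G26290 and AT5G28160 followed, with data in 83, 82, 80 and 80 of the other libraries. Whether the sequence is missing, too different to be mapped or uncovered in 6966 was not tested.

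The accessions most like 6966 in gene-body CG over 25301 protein-coding genes were 5210 and 6909, both with a Pearson's r of 0.847, followed by 6024 (0.845). Accession 6911 was least like it, with 0.651. These are correlations across genes of accession means, which rest on different numbers of libraries, and neighbours in this order differ little.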

How the data were processed

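Leaf DNA of 88 libraries from 32 accessions was bisulfite-sequenced. The authors deposited methylation levels as fractions from 0 to 1 per locus and library in 12 tables (CG, CHG and CHH, gene body and promoter window, Araport11 and their own annotation). The build is TAIR10, per the submitters' processing notes; the sources used here name no aligner, caller or coverage filter. A CHH value of exactly 1 was read as no data in all contexts and a CHG value of exactly 1 as no data in CHG, since such values were taken to stand for loci without covered sites. Loci needed a value in at least 3 libraries of 6966 and 80% of the others. The difference is the mean of 6966 minus the unweighted mean of the other accession means. Its error comes from the spread between replicates within accessions, moderated with limma 3.58.1 (R 4.3.3) with a trend on the mean level. Accessions with 1 library add a mean but no spread. Adjusted p tell 6966 from the mean of these 31 accessions and not from each of them. The limma p-values measure the spread between separately grown plant pools, while the exact permutation p-values rest on the spread between accessions. Class levels and counts were compared by exact permutation with Python 3.11.15. Overlap with TE fragments meant at least 1 bp on either strand (bedtools 2.31.1). Symbols for all 30829 Araport11 genes were matched through RefSeq's TAIR10.1 table. On simulated tables with shifts of 30 points in CG, the Araport11 gene-body step recovered 76.5% of 200 changed loci among 43376 and called 4 unchanged ones. In promoter windows the same shift was recovered at 57% of 200 changed loci among 45919 (3 unchanged ones called) and, in the authors' annotation, at 67% among 32028 (7 unchanged ones called). The simulated levels had normal noise and shifts in either direction and were not bounded between 0 and 1. These rates therefore need not hold for the real levels.

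The growth round pairs libraries by the series' description. Same-round deviations of 6966 correlated with those of other accessions by 0.0118 to 0.0380 for CG. The correlations were 0.00938 to 0.0874 for CHG and -0.0255 to 0.0371 for CHH. The own round gave the highest correlation in 3 rounds for CG, 2 for CHG and 0 for CHH.

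Named genes followed a rule: protein-coding genes called in all contexts with the largest summed differences (8 for gene bodies, 5 for promoter windows), the 5 largest CG-only changes each way outside the range of the others, the 5 largest lncRNA and TE genes each way, called genes of the lists and 5 genes without data. Where fewer met it, all are given, and 1 gene that met it is not reported here; the other members of the 16 genes were added after their values were seen. Accession 6966, the gene lists and the tests were chosen with earlier results of these data known. Alternatives covered the no-data rule, filters, scale, growth round, single accessions and each library of 6966.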

Additional observations from a re-analysis of the deposited data

Results flagged for a closer look

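Among 115 groups of the 4 libraries of 6966, 11 had 1 library far from the other 3, measured as the gap to the nearest library over the group's range (Dixon's criterion), and chance flags about 1 in 20. Replicate 4 was high for CHH of TE genes (7.29% against 6.65% to 6.76%, ratio 0.838) and of TE fragments (4.95% against 4.41% to 4.50%, ratio 0.835). Replicate 1 was low for CHG in promoter windows of intergenic lncRNA loci (7.83% against 8.11% to 8.16%, ratio 0.869). At single loci, replicate 1 was low for AT5G11565 CG (60% against 100%, ratio 1), high for AT1G63360 CG (89.6%, ratio 0.900) and low for CUFF_NC.2162 CHH (9.18%, ratio 0.914). Replicate 2 was low for HISN6B CG (50% against 100%, ratio 1) and for CG in the promoter window of DML2 (0% against 100%, ratio 1). Replicate 3 was high for AT5G46310 CHG (71.4%, ratio 0.946). The ratio was 1 with a small range for AT4G05360 CG (1.59% in replicate 4, 0% in the rest) and AT1G43715 CG (0.82% in replicate 2, 0% in the rest).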

How the results depend on the processing

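Depth limits all levels, since coverage is unknown and short loci and promoter windows can rest on few cytosines. More loci were higher than lower in each of the 224 pairs of counts, over tables, contexts and settings including the main one. These pairs draw on the same libraries and overlapping loci and are not separate checks. A lower call needs a mean of at least the minimum difference in the others, which weakly methylated loci do not have. How far this requirement sets the order was not tested, and nothing particular to 6966 is read from it. By the minimum difference alone, 65.2% of CHG loci past it were higher in 6966, against a mean of 55.0% elsewhere (exact permutation p = 0.5625). The other accessions ranged from 22.5% to 76.7%. For CG the share was 58.5%, against a mean of 51.4% and a range of 22.2% to 75.0% (exact permutation p = 0.469).

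With values as deposited, in which CHG and CHH values of exactly 100% stay in, counts changed as follows. In Araport11 gene bodies, 1310 loci were lower in CG, 1644 higher and 1128 lower in CHG, 2526 and 1900 in CHH, and 444 and 307 in all contexts. In Araport11 promoter windows the counts were 2079 and 1546 (CG), 2818 and 1790 (CHG), 3755 and 3114 (CHH), and 897 and 623 in all contexts. In the authors' gene bodies 654 were lower in CG, and the counts were 545 and 341 in CHG, 457 and 370 in CHH, and 204 and 125 in all contexts. In the authors' promoter windows they were 1091 and 731 (CG), 933 and 547 (CHG), 953 and 703 (CHH), and 395 and 261 in all contexts. Of the 21 all-context gains in Araport11 gene bodies, 16 remained. Class differences of 6966 from the others, in percentage points, turned negative in gene bodies for CHH of intergenic lncRNA (-0.297), antisense lncRNA (-0.257), protein-coding (-0.0490) and TE fragment loci (-0.253) and for CHG of antisense lncRNA loci (-0.0657). In promoter windows they did for CG and CHH of intergenic lncRNA (-0.0292 and -0.768), CHG and CHH of antisense lncRNA (-0.469 and -0.511) and CHG and CHH of protein-coding loci (-0.677 and -0.663).

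With only loci that have a value in every library, fewer loci were tested and counts fell. In Araport11 gene bodies they were 458 and 278 (CG), 118 and 25 (CHG) and 26 and 5 (CHH), with 2 lower in all contexts. In Araport11 promoter windows they were 372 and 147, 47 and 7, 25 and 1, and 5 and 1 in all contexts. In the authors' gene bodies they were 424 higher in CG, 103 and 24 in CHG, 17 and 0 in CHH, and 13 and 0 in all contexts. In the authors' promoter windows they were 287 and 157, 21 and 2, 5 and 0, and 1 and 0. CHH differences turned to -0.0715 for intergenic lncRNA and 0.0959 for TE gene promoter windows.

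With CG values of exactly 100% read as no data, CG promoter counts were 711 and 315 (Araport11) and 426 higher (authors), and all-context losses fell to 2, 0, 1 and 0 over the 4 pairs of annotation and region. For 12 of the named CG results too few values were left for a test. With CHG values of 100% kept, higher CHG promoter counts were 619 and 360. On the arcsine scale, CHH losses rose to 16 and 12 in Araport11 gene bodies and promoter windows and to 8 and 5 in the authors', and all-context losses in promoter windows to 4 and 3.

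With the growth round as a replicate block, and likewise without accession 6909, the single CHH and all-context loss in the authors' promoter windows was not called (0 and 0), and the block changed no other call or count by over 1.5 times. Leaving out each library of 6966 in turn gave 2 to 4 all-context losses in Araport11 gene bodies, 44 to 62 CHG losses, 0 to 1 CHH losses and 0 to 0 all-context losses in Araport11 promoter windows, 2 to 4 CHH losses in the authors' gene bodies, and 0 to 1 CHH and 0 to 0 all-context losses in the authors' promoter windows. The CHH difference ran from 0.0458 to 0.0829 for antisense lncRNA gene bodies, 0.0353 to 0.0790 for their promoter windows and -0.100 to 0.0807 for TE fragment gene bodies. The CG difference of protein-coding promoter windows ran from -0.237 to 0.0311.

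When medians of loci replaced means, the difference was 0 for 10 classes, -0.0172 for CHG of protein-coding gene bodies, -0.0244 for CHH of intergenic lncRNA and 0.0989 for CHH of TE gene promoter windows. With loci of at least 500 bp, CHH of TE fragments differed by -0.0592.

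Among accessions with 4 libraries, 6966 was above and below the range of the others at 243 and 145 loci (CG), 64 and 25 (CHG) and 115 and 10 (CHH), and lower in all contexts at 8. With replicates 3 and 4 alone it was above and below at 127 and 65 in CG, above at 50 in CHG and 113 in CHH, higher and lower than the mean at 750 and 373 in CHG, and lower in all contexts at 17. Beyond the constructions named here, the cause of these shifts was not tested.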
